A study of Mus musculus with 4 samples.

Results

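Mural cells are the cells wrapped around the endothelial tube of a blood vessel. Pericytes sit on capillaries and venules inside the basement membrane they share with the endothelium, and smooth muscle cells form the contractile layer of arterioles and larger vessels. Endothelial PDGF-B acts on the receptor Pdgfrb and endothelial Notch ligands act on Notch3 to recruit and maintain them, while potassium channels, nucleotide signals and actomyosin set the tone of the wall. In bone marrow, cells around vessels are also known as a source of signals that keep blood stem cells, although many of these signals are made by Adipoq-expressing stromal cells that lie next to the same vessels.

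The libraries held cells released with proteases from the endosteal marrow of mouse long bones and sorted for the Td reporter. The mice carried Col2-Cre, a recombinase driven by the promoter of the cartilage collagen gene Col2a1, and a Rosa26 lsl-tdTomato allele that turns the reporter on in every cell with a history of Cre and in its descendants; the labels give the strain as B6SJL/F1. Male mice of 1 month (2 mice), 1.5 months (3 mice), 3 months (3 mice) and 16 months (3 mice) were pooled by age into 1 droplet library each, with Td+ cells taken where a Td peak was seen and the brightest 1% of cells elsewhere. A vessel wall cell entered these data only through that gate, there was no second library of any age, and no unsorted library was analysed here.

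Mural cells were chosen from measured values. A cell had to carry 200 to 6000 genes and at most 5% of its UMIs (unique molecular identifiers, the counted molecules) from mitochondrial genes. It then needed a UMI of at least 3 of the 6 marker genes Rgs5, Higd1b, Abcc9, Kcnj8, Notch3 and Myh11, no UMI of the endothelial cadherin Cdh5 or the blood cell antigen Ptprc, and Adipoq below 8 per 10000 UMIs. These conditions were met by 222 of the 24084 cells that passed the filter, out of 27907 barcodes. That was a share of 0.922% (exact 95% binomial interval 0.805 to 1.05%). The 1 month library held 33 such cells of 8308 (0.397%, 0.274 to 0.557%), the 1.5 month library 85 of 5453 (1.56%, 1.25 to 1.92%), the 3 month library 32 of 4180 (0.766%, 0.524 to 1.08%) and the 16 month library 72 of 6143 (1.17%, 0.918 to 1.47%). The shares at 1 month and at 1.5 months did not overlap within counting error, and the 3 month interval overlapped those of 1 and 16 months. The intervals cover counting error only: the sort and the pooling of mice set these shares too, and with 1 library per age no difference between ages could be tested.

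Depth set what could be seen in each library. A mural cell held a median of 8543, 6156, 4154 and 10726.5 UMIs at 1, 1.5, 3 and 16 months, with a lowest cell of 2452 and a highest of 61157. The 16 month library stood apart in its construction: its table listed 31054 genes where the others listed 27999, and it shared 1 or 2 cell barcodes with each of the others, which shared 30 to 61 among themselves. A single barcode of a mural cell was shared, between 1.5 and 3 months. Age and these features of the 16 month library cannot be told apart, so values at that age are given beside the same genes in other cells of that library.

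Levels below are CPM, counts per 1000000: all UMIs a gene had in a given class and library, scaled to the UMIs there of the 26602 genes found in all 4 tables. Mural cells were set beside Adipoq stromal cells (Adipoq at 8 or more per 10000 UMIs), of which there were 162, 1168, 337 and 2800 at 1, 1.5, 3 and 16 months, and beside endothelial cells (at least 3 of Cdh5, Pecam1, Emcn, Kdr, Flt1 and Egfl7), of which there were 141, 22, 208 and 55. The study reports that Adipoq-Cre marked all the pericytes it counted around marrow capillaries. The Adipoq stromal class may therefore hold pericytes that the Adipoq limit kept out of the mural class. Cells with Ptprc gave the level that free RNA can leave in a blood cell. Because the classes come from the same tables and were chosen on expression, the differences are descriptions with no test. A gene was called higher or lower when it differed at least 2-fold in the same direction in each library, among genes at 50 CPM or more in 1 class. For the call, a level under 3 UMIs was set at 3 UMIs.

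The label of these cells held for a part of them. Of the 222 cells, 106 carried 4 or more of the 6 markers (18, 50, 17 and 21 at 1, 1.5, 3 and 16 months), which was 47.7% (41.0 to 54.5%). The other 116 carried exactly 3 (15, 35, 15 and 51). Of 37 other genes of the vessel wall that the rule did not use, cells with 4 or more markers had a UMI of a median of 22.5, 21, 21 and 21 at the 4 ages. Cells with exactly 3 markers had a UMI of a median of 13, 11, 15 and 9 of them, where Adipoq stromal cells had 9, 8, 7 and 9 and endothelial cells 5, 8, 5 and 7. Thinned to 3000 UMIs per cell, the medians were 18, 18, 20 and 17 for 4 or more markers, 8, 7, 9.5 and 6 for exactly 3, and 7, 6, 6 and 6 for Adipoq stromal cells. At 16 months the cells with exactly 3 markers therefore carried no more vessel wall genes than the stromal cells beside them, and the results below are given for the cells with 4 or more markers, a set chosen after the values were seen, with the rule beside them where both were computed.

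**Figure D1:**
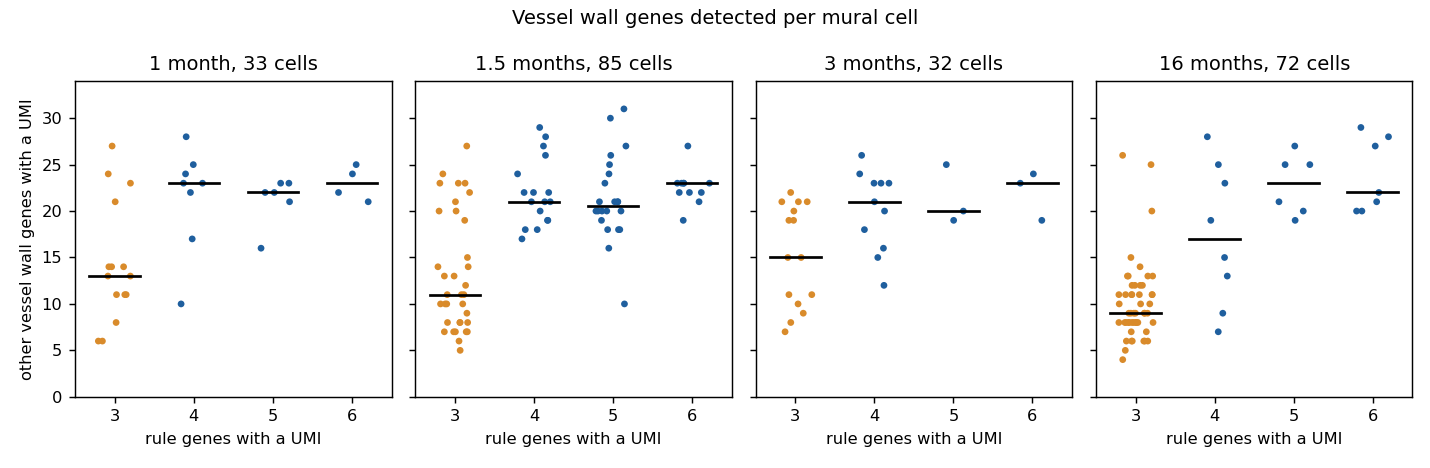
Number of other vessel wall genes with a UMI (vertical axis, of 37) against the number of rule genes with a UMI (horizontal axis, 3 to 6) for each mural cell, with 1 panel per library (33, 85, 32 and 72 cells). Black bars are medians, orange points are cells with exactly 3 rule genes and blue points cells with 4 or more. At 16 months the orange cells have a median of 9 genes and the blue cells a median of 21.

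The combinations of markers behind the cells with exactly 3 differed between libraries. The set Rgs5, Abcc9 and Notch3 accounted for 42 cells, 30 of them at 16 months. These 30 cells held Acta2 at 2.03 CPM beside 38368 CPM of Col1a1 and 28977 CPM of Bglap, the products of osteoblasts, and 10981 CPM of Cxcl12, the leading chemokine of Adipoq stromal cells. The set Abcc9, Kcnj8 and Notch3 accounted for 25 cells, and its 24 cells at the younger ages held 106 CPM of Acta2 and 8870 CPM of the bone matrix gene Spp1. By contrast, the 10 younger cells with Rgs5, Notch3 and Myh11 held 5622 CPM of Acta2 and 2841 CPM of Tagln. A single marker weighed on this: Notch3 had a UMI in 54.7% of all cells that passed at 16 months, against 4.02, 13.6 and 7.58% at 1, 1.5 and 3 months.

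Transcripts of other cell types showed the same split. The 10 osteoblast genes summed to 4069, 7067, 1173 and 24651 CPM in cells with 4 or more markers and to 10388, 48143, 8279 and 108524 CPM in cells with exactly 3, where Adipoq stromal cells had 5241, 11516, 8185 and 6925 CPM. The 12 Adipoq stromal genes summed to 1409, 1775, 1345 and 16264 CPM in cells with 4 or more markers, against 31481 to 47183 CPM in the stromal cells. The highest sums of that class were those of 16 months, and few cells carried them. Without the cells that gave 1% or more of their UMIs to Col1a1, Bglap, Bglap2 and Spp1 together (1, 1, 0 and 2 of the 18, 50, 17 and 21), the osteoblast sum was 2039, 3569, 1173 and 3009 CPM, no longer highest at 16 months. Without the 6 cells of 16 months that gave 1% or more to Cxcl12, the Adipoq stromal sum at that age was 3910 CPM, still above the younger libraries. Both sets of cells were picked after their values were seen. The 12 endothelial genes stayed at 100 to 266 CPM there, near the 107 to 156 CPM of stromal cells and far from the 5802 to 8353 CPM of endothelial cells. The gap to endothelial cells was partly set by the choice of cells, since Pecam1, Emcn, Kdr, Flt1 and Egfl7 are in this list. Erythroid genes reached 55657 CPM in the 15 cells of 1 month with exactly 3 markers and 4429 CPM in the 18 cells with 4 or more, where endothelial cells had 38754 CPM. Neutrophil genes were at 11177 CPM in cells with 4 or more markers at 1 month and at 217602 CPM in Ptprc cells, and they were at 1803 CPM or less in the other libraries. Chondrocyte genes were at 274 to 4037 CPM in cells with 4 or more markers, the highest at 1.5 months, and at 87.2 to 5456 CPM in stromal cells. Monocyte and macrophage genes were at 41.5 to 2900 CPM there, B lineage genes at 801 to 1196 CPM (Ebf1 among them) and fibroblast progenitor genes at 1037 to 1960 CPM. Schwann cell genes did not pass 166 CPM and skeletal muscle genes 11.1 CPM in any mural class. The part of these transcripts in the results below was not tested.

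Cells just outside the rule, with exactly 2 markers and the same exclusions, numbered 70, 115, 39 and 329. They had a UMI of a median of 8.5, 9, 8 and 9 of the 37 other wall genes, and Acta2 at 188, 159, 708 and 25.6 CPM. Cells just inside, with exactly 3 markers, held Acta2 at 2234, 1258, 2281 and 220 CPM. Before the exclusions 50, 106, 68 and 197 cells carried 3 or more markers, of which 3, 6, 33 and 41 had a UMI of Cdh5, 11, 0, 1 and 7 a UMI of Ptprc, and 4, 17, 6 and 95 reached the Adipoq limit.

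The 6 rule genes are described as what chose the cells. Rgs5, a regulator of G protein signalling typical of pericytes (chr1:169655501-169695813, build mm10), was at 8207, 11340, 13164 and 7222 CPM in cells with 4 or more markers, against 8.99 to 20.5 CPM in stromal and 16.5 to 29.4 CPM in endothelial cells. Myh11, the heavy chain of smooth muscle myosin (chr16:14194535-14291372), was at 518, 534, 873 and 713 CPM, with at most 3.17 CPM in stromal cells. Abcc9 and Kcnj8 lie side by side on chromosome 6 and encode the 2 subunits of an ATP-sensitive potassium channel of vessels. Abcc9 was at 126, 221, 157 and 174 CPM and Kcnj8 at 133, 355, 172 and 87.1 CPM in cells with 4 or more markers. Neither was particular to the wall in these libraries, since endothelial cells held Abcc9 at 264 and 478 CPM and Kcnj8 at 289 and 252 CPM at 3 and 16 months. Notch3 had a UMI in 90.6 to 97.2% of mural cells by the rule in every library, Rgs5 in 72.7 to 93.8%, Abcc9 in 34.4 to 83.3%, Myh11 in 41.7 to 68.8%, Higd1b in 26.4 to 58.8% and Kcnj8 in 20.8 to 61.2%.

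Of the contractile list, Acta2, Mustn1 and Tagln led the ranking of genes over both other classes that is given below. Acta2, smooth muscle actin (chr19:34241090-34255590), was at 6558 CPM (exact Poisson interval 6165 to 6970) at 1 month, 4450 CPM (4219 to 4690) at 1.5 months, 7054 CPM (6445 to 7705) at 3 months and 1821 CPM (1655 to 2000) at 16 months in cells with 4 or more markers. Stromal cells held 71.6, 25.4, 5.65 and 3.84 CPM, and Ptprc cells 23.6, 22.6, 13.1 and 11.6 CPM. The levels did not overlap in any library, and the fold over stromal cells ran from 91.5 to 1249. By the rule with 3 or more markers Acta2 was at 4448, 2806, 4369 and 588 CPM, 62.1- to 774-fold over stromal cells. Tagln, an actin-binding protein of smooth muscle (chr9:45929619-45936058), was at 2180, 2319, 3248 and 1908 CPM in cells with 4 or more markers and at 52.7, 16.6, 4.24 and 10.4 CPM in stromal cells.

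Other parts of the contractile apparatus followed. Myl9, the regulatory light chain of myosin, was at 2932, 2569, 3506 and 842 CPM against 512, 246, 236 and 143 CPM in stromal cells. Tpm2, a tropomyosin, was at 2249, 1289, 2461 and 1120 CPM, 8.15- to 39.6-fold over stromal cells. Mustn1, a small nuclear protein of muscle, was at 1245, 1072, 2332 and 564 CPM. The intermediate filament gene Des was at 94.8, 170, 258 and 70.5 CPM and the actin nucleator Lmod1 at 101, 173, 172 and 116 CPM. Tpm1 was widely shared, at 1971, 1388, 2203 and 1439 CPM in the mural cells and 1481, 1068, 1152 and 1422 CPM in stromal cells. Cnn1, a marker of mature smooth muscle, stayed at 31.6, 38.4, 57.2 and 4.15 CPM and below the level set for a call.

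Of the contractile list, 15 of 20 genes could be compared between mural cells by the rule and stromal cells, and 9 were called higher and 0 lower, with a median log2 ratio of 3.27. Over all 3288 genes compared, 100 were called higher (3.04%) and 109 lower (3.32%), with a median log2 ratio of -0.05. Against endothelial cells 9 of 16 contractile genes were called higher and 0 lower (median 3.66), where 167 of 3600 genes were called higher (4.64%) and 302 lower (8.39%). In cells with 4 or more markers the counts were 11 of 15 over stromal cells, where 190 of 3479 genes were called higher (5.46%) and 111 lower (3.19%). Over endothelial cells they were 13 of 16, where 227 of 3663 genes were called higher (6.2%) and 191 lower (5.21%). The contractile medians in that class were 3.69 and 4.33, and the medians over all genes compared ran from -0.08 to 0.04 in the 4 comparisons.

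**Figure D2:**
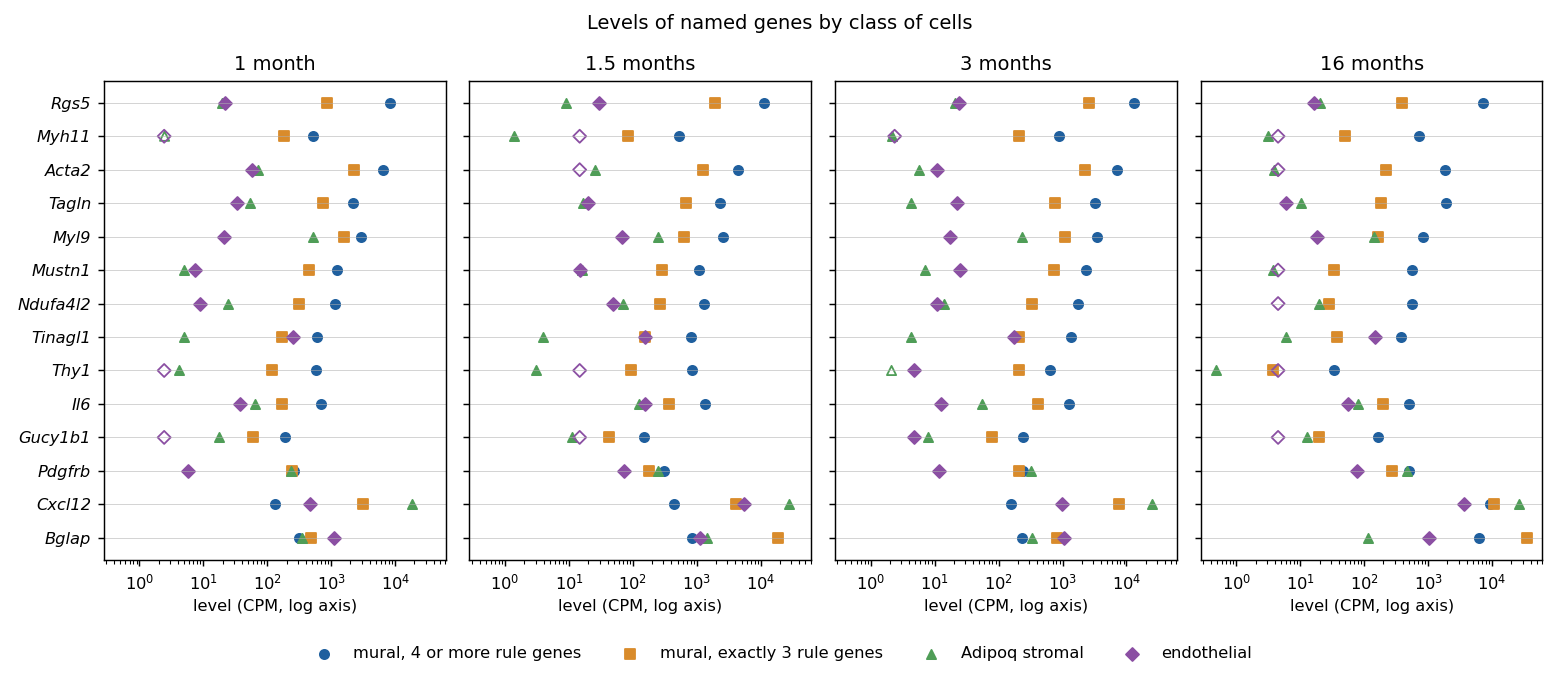
Level of 14 genes in CPM (log axis) in cells with 4 or more markers (blue circles), cells with exactly 3 (orange squares), Adipoq stromal cells (green triangles) and endothelial cells (purple diamonds), 1 symbol per class and library. Open symbols are levels under 3 UMIs drawn at the level of 3 UMIs. Acta2 and Tagln in the blue class lie above every stromal and endothelial value, whereas Pdgfrb in the blue class runs from 243 to 510 CPM beside 231 to 465 CPM in stromal cells.

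Promoters of contractile genes are known for the CArG box, the site that serum response factor binds. The box was searched as CC, then 6 bases each A or T, then GG, on both strands (the motif is its own reverse complement in form), in the 250 bases before the start of each gene in the RefSeq promoter table for mm10. It was found in 3 of the 18 promoters given for the contractile list with Myh11 (16.7%), in 0 of 13 of the pericyte and vessel wall list, and in 439 of all 27025 promoters (1.62%). Among the genes higher in cells with 4 or more markers over both other classes 5 of 74 held it (6.76%), and among all genes compared 52 of 2695 (1.93%). The 3 contractile windows are shown with the box in capitals, since they carry the only sequence feature searched. The boxes start 161, 227 and 50 bases before the gene start, and the windows lie at Myl9 (chr2:156775283-156775332, plus strand), Vcl (chr14:20929151-20929200, plus strand) and Myl6 (chr10:128493030-128493079, minus strand).
Myl9: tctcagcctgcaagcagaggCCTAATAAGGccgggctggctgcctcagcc
Vcl: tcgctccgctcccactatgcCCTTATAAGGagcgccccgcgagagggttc
Myl6: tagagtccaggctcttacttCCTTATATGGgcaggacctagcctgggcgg

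The genes with these boxes were not the most restricted of the list. Myl9 was called higher over both classes. Myl6, the essential light chain of myosin, was at 3772, 2863, 4092 and 1647 CPM in cells with 4 or more markers and at 1999, 1233, 1635 and 1035 CPM in endothelial cells, where it was not called. Vcl, which links actin to adhesion sites, was at 164, 138, 215 and 207 CPM beside 47.8, 40.4, 45.2 and 123 CPM in stromal cells and was not called against either class. A match of the letters is a description of the window and not of binding.

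Pericyte and vessel wall markers outside the rule were shared out in the same way. Over stromal cells 7 of 13 were called higher by the rule (median log2 ratio 2.22) and 14 of 18 in cells with 4 or more markers (4.60). Over endothelial cells the counts were 9 of 13 (2.73) and 14 of 18 (3.58), and none was called lower in any of these. Ndufa4l2, a mitochondrial protein found in pericytes, was at 1163, 1273, 1760 and 552 CPM in cells with 4 or more markers. Cox4i2, a subunit of cytochrome oxidase, was at 588, 589, 672 and 187 CPM. Vtn, which encodes vitronectin, was at 63.2, 86.4, 129 and 78.8 CPM, and the proteoglycan gene Cspg4 (NG2) at 94.8, 76.8, 143 and 45.6 CPM.

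A receptor widely used to mark pericytes was not among those called higher over stromal cells. By the study's report that class may itself hold pericytes, so it does not stand for cells outside the vessel wall. Pdgfrb, the receptor for endothelial PDGF-B, was at 259, 301, 243 and 510 CPM in cells with 4 or more markers and at 231, 242, 323 and 465 CPM in Adipoq stromal cells, a ratio of 0.754 to 1.24. By the rule the ratio was 0.699 to 1.09. It separated mural from endothelial cells, which held 5.68, 73.4, 11.8 and 76.4 CPM. Ebf1, a transcription factor, was likewise at 802, 1190, 801 and 929 CPM beside 775, 814, 787 and 805 CPM in stromal cells. Mcam (CD146) was at 101, 269, 143 and 87.1 CPM in the mural cells and at 30.8, 83.2, 66.2 and 123 CPM in endothelial cells, so its order turned at 16 months. The gap junction gene Gja4 was at 171, 326, 415 and 183 CPM in the mural cells and at 252, 9.78, 86.7 and 80.9 CPM in endothelial cells, the higher of the pair at 1 month.

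Genes of excitation and of the response to vasoactive signals came next. Kcnk3, a background potassium channel, was at 88.5, 73.6, 172 and 145 CPM in cells with 4 or more markers. Ano1, a calcium-activated chloride channel, was at 25.3, 83.2, 85.9 and 124 CPM, and Atp1b2, a subunit of the sodium pump, at 82.1, 282, 372 and 70.5 CPM. Of the potassium and calcium list 3 of 7 genes were called higher over stromal and 4 of 7 over endothelial cells in that class, and 2 of 6 over each by the rule, with median log2 ratios of 1.22 and 2.65 in the class with 4 or more markers and 0.54 and 1.43 by the rule. The voltage-gated and calcium-activated channel genes of smooth muscle were near the floor: Kcna5 did not pass 12.8 CPM, Kcnmb1 28.6 CPM and Cacna1h 14.3 CPM in cells with 4 or more markers of any library.

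Both subunits of soluble guanylate cyclase, the nitric oxide receptor that makes cGMP, were higher in mural cells than in either other class. Gucy1a1 was at 209, 256, 143 and 311 CPM in cells with 4 or more markers against 43.6, 22, 18.4 and 51.1 CPM in stromal cells. Gucy1b1 was at 190, 150, 243 and 166 CPM against 17.3, 11.1, 7.77 and 12.7 CPM, an 11- to 31.3-fold difference. Downstream, the phosphodiesterase gene Pde3a was at 88.5, 122, 114 and 108 CPM, and the kinase gene Prkg1 stayed at 9.60 to 58.1 CPM. Among receptors, the endothelin receptor gene Ednra was at 56.9, 122, 114 and 137 CPM in the mural cells and at 26.4, 30.6, 27.5 and 56.2 CPM in stromal cells, and the angiotensin receptor gene Agtr1a at 31.6, 112, 71.5 and 33.2 CPM. Ramp1, the partner of the CGRP receptor, was at 215, 288, 415 and 286 CPM. The list as a whole had 9 of 13 genes called higher over stromal and 10 of 17 over endothelial cells, with 2 lower than in endothelial cells, in cells with 4 or more markers. By the rule 3 of 9 and 5 of 13 were higher, with 3 lower than in endothelial cells. The medians were 2.36 and 2.91 with 4 or more markers and 1.08 and 2.52 by the rule.

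Notch genes differed with the class they were set beside. Nrarp, a feedback target of Notch, was at 272, 211, 200 and 141 CPM in cells with 4 or more markers and at 1.38 to 2.12 CPM in stromal cells. Heyl, a transcriptional target of Notch3, was at 114, 157, 85.9 and 70.5 CPM, with 0 to 4.89 CPM in endothelial cells. Neither Nrarp nor Heyl was called higher over both classes in cells with 4 or more markers. Of the whole Notch list 0 genes were. The general target Hes1 was not higher, at 152, 438, 715 and 614 CPM beside 374, 645, 672 and 856 CPM in stromal cells. The ligand genes Dll4 and Dll1 belonged to endothelial cells, at 60.9, 44.0, 75.7 and 144 CPM and at 20.3, 48.9, 74.9 and 105 CPM there, whereas the ligand gene Jag1 was at 50.5, 170, 129 and 83.0 CPM in the mural cells. The list had 2 of 6 genes called higher over stromal cells in cells with 4 or more markers and 1 of 7 by the rule. Over endothelial cells it had 1 higher and 1 lower of 9, and 1 higher and 4 lower of 11 by the rule. The medians were 0.46 and -0.09 with 4 or more markers and 0.55 and 0.48 by the rule.

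PDGF, angiopoietin and VEGF genes showed little that was higher in mural cells. Pdgfa was at 291, 435, 687 and 253 CPM in cells with 4 or more markers against 51.9, 51.7, 72.7 and 83.3 CPM in stromal cells. Pdgfb, the ligand of Pdgfrb, was at 49.5, 39.1, 63.1 and 89.9 CPM in endothelial cells and at 0 to 16.6 CPM in the mural cells. Kdr and Flt1, VEGF receptor genes of this list, helped to choose the endothelial cells, so their height in that class was set by the choice. Kdr was at 315, 303, 808 and 929 CPM there. The list had 2 of 13 genes higher and 2 lower than in stromal cells, and 4 higher and 5 lower of 15 than in endothelial cells, in the class with 4 or more markers, and 0 and 2 of 12, and 2 and 5 of 16, by the rule. Its medians were -0.95 and -0.32 with 4 or more markers and -0.88 and -0.25 by the rule. Among TGF-beta and BMP genes, Nbl1, a secreted BMP antagonist, was at 164, 342, 329 and 78.8 CPM, 5.34- to 12.6-fold over stromal cells. This list split almost evenly in the class with 4 or more markers, with 2 higher and 2 lower of 19 against stromal cells and 5 and 5 of 18 against endothelial cells. By the rule it had 1 and 2 of 18, and 4 and 5 of 20, and none of its medians passed 0.18 in either direction.

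Matrix and adhesion genes also had a mural set. Col18a1, a basement membrane collagen, was at 619, 717, 572 and 348 CPM in cells with 4 or more markers, against 12 to 20.7 CPM in stromal cells and 77.3 to 291 CPM in endothelial cells. Mgp, an inhibitor of calcification made by smooth muscle, was at 4025, 3887, 4178 and 2323 CPM, against 102, 406, 892 and 1016 CPM in stromal cells. Fbln5, an elastic fibre gene, ran the other way, at 12.6, 44.8, 0 and 427 CPM against 1056 to 1425 CPM in stromal cells. Itga7, a laminin receptor of muscle, was at 94.8, 170, 172 and 70.5 CPM. The basement membrane list had 4 higher and 2 lower of 14 against stromal cells and 2 and 1 of 14 against endothelial cells in the class with 4 or more markers, and 2 and 2, and 1 and 1, of 14 by the rule, with medians of 0.61 and 0.23, and of 0.69 and -0.13. The adhesion list had 5 higher and 2 lower of 12, and 3 and 0 of 14, where the lower genes were the connexin gene Gja1 and the cadherin gene Cdh11; by the rule it had 4 and 0 of 12, and 4 and 2 of 14. The medians were 1.19 and 1.13, and 0.80 and 0.40.

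Among transcription factors, Tbx2 was at 44.2, 115, 100 and 112 CPM in cells with 4 or more markers, 4.48- to 8.86-fold over stromal cells. Meox2, which restrains growth of smooth muscle, was at 37.9, 67.2, 85.9 and 29.0 CPM. Nr2f2, known from venous endothelium, was at 56.9, 365, 229 and 228 CPM. The list had 4 of 12 genes higher than in stromal cells and 6 of 13 higher than in endothelial cells, and 3 of 10 and 3 of 11 by the rule, with none lower. The medians were 0.82 and 0.68 with 4 or more markers and 0.16 in both comparisons by the rule.

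Of the marrow niche genes, mural cells stood out for Il6 and not for Cxcl12. Il6, an inflammatory cytokine that also acts on blood progenitors, was at 689 CPM (565 to 831), 1347, 1259 and 510 CPM in cells with 4 or more markers, against 65.1, 123, 55.1 and 79.8 CPM in stromal cells and 37.3, 152, 12.6 and 55.4 CPM in endothelial cells. The groups did not overlap, and the fold over stromal cells was 6.39 to 22.9. Ccl11, the chemokine eotaxin, was at 63.2, 147, 429 and 29.0 CPM and at most 1.41 CPM in stromal cells. Cxcl12, which holds stem cells in the marrow, was at 133, 441, 157 and 9308 CPM in cells with 4 or more markers, far under the 18026, 27186, 25230 and 26790 CPM of stromal cells. Kitl and Vcam1 were also called lower than in stromal cells. Nes, the nestin gene by which some perivascular niche cells were named, was at 82.1, 41.6, 71.5 and 37.3 CPM in the mural cells, at 0.706 to 1.66 CPM in stromal cells and at 86.0, 53.8, 71.7 and 106 CPM in endothelial cells, so it marked both parts of the vessel. The list had 3 higher and 5 lower of 18 against stromal cells (by the rule 1 and 5 of 16), and 4 and 0 of 14 against endothelial cells (2 and 0 of 15). Its medians were -1.89 and 1.15 with 4 or more markers and -1.87 and 1.16 by the rule.

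Stress genes were seldom called, and interferon-stimulated genes were lower in mural than in endothelial cells. Of 16 immediate early and heat shock genes 1 was called higher than in stromal cells in the class with 4 or more markers and 0 by the rule, with a median log2 ratio of -0.50 and -0.53. Of the interferon-stimulated genes 0 of 7 were called against stromal cells, and 3 of 6 by the rule and 1 of 6 in the class with 4 or more markers were lower than in endothelial cells, with medians of -1.42 and -1.46. The 16 interferon-stimulated genes summed to 2887, 2447, 2604 and 2451 CPM in cells with 4 or more markers, below the 4931, 4594, 4902 and 2843 CPM of stromal cells and the 4519, 4388, 4571 and 3483 CPM of endothelial cells in every library.

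Ranked by the smallest fold over the higher of the stromal and endothelial cells in any library, the 10 leading genes by the rule were Acta2 (62.1), Mustn1 (34.5), Tagln (28.0), Cryab (16.1), Meg3 (10.9), Crispld2 (9.37), Aspn (8.95), Ndufa4l2 (7.65), Cpe (6.79) and Tpm2 (5.96). In these folds, as in the calls, levels under 3 UMIs were set at 3 UMIs. Cryab, a small heat shock protein of muscle, was at 455, 781, 787 and 174 CPM in cells with 4 or more markers. Meg3, an imprinted noncoding RNA, was at 2458, 2815, 1746 and 660 CPM, and Aspn, a small proteoglycan of the matrix, at 644, 790, 744 and 270 CPM. Olfr558, a member of the olfactory receptor family, joined the list in that class at 221, 269, 243 and 108 CPM, with at most 0.138 CPM in stromal and 0.788 CPM in endothelial cells. In all, 115 genes were called higher over both classes in cells with 4 or more markers. These included 4 rule genes, which chose the cells, 10 contractile genes, 10 wall markers and 7 vasoactive genes, and 70 of them were in none of the 13 pathway lists. Against stromal cells 190 of 3479 genes compared were called higher in that class (5.46%), and against endothelial cells 227 of 3663 (6.2%).

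Within the mural cells, Myh11 and the potassium channel genes named the ends of a range. Cells with more UMIs of Myh11 than of Kcnj8, Abcc9 and Higd1b together were put on a Myh11 side, and those with fewer on a Kcnj8 side. There were 54 on the Myh11 side (24.3%, 18.8 to 30.5%), 158 on the Kcnj8 side and 10 with equal counts. A single rule gene was set against several rule genes together, so these shares were partly set by the definition. They do not give the make-up of the vessel wall. By library the Myh11 side held 8, 17, 13 and 16 cells (24.2, 20, 40.6 and 22.2%). In the class with 4 or more markers it held 33 of 106 cells (31.1%, 22.5 to 40.9%), 67 were on the other side and 6 were equal. The division was not sharp: 73 of the 222 cells lay within 1 UMI of it, as did 19 of the 106 cells with 4 or more markers. In that class 87 cells carried UMIs of both, which was fixed by the choice of cells. A cell cannot reach 4 of the 6 markers without Kcnj8, Abcc9 or Higd1b, so this count gives only the cells with Myh11.

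Contractile genes were higher on the Myh11 side. Acta2 was at 9623, 8301, 9417 and 3396 CPM there and at 2593, 1496, 1619 and 60.2 CPM on the Kcnj8 side. Tagln was at 3810, 4357, 4223 and 3515 CPM and at 646, 795, 533 and 18.3 CPM. The levels of neither gene overlapped between the sides by the rule. In cells with 4 or more markers Acta2 was at 8193, 11038, 9886 and 4394 CPM against 5914, 2577, 3813 and 350 CPM, so the order held and the gap narrowed, to 3.04-fold when the libraries were pooled. By the rule, in the 3 libraries with at least 10 cells a side, 10 of 15 contractile genes were called higher and 0 lower (median log2 ratio 1.71), where 53 of 1719 genes were called higher (3.08%) and 19 lower (1.11%). In the class with 4 or more markers the libraries were pooled, because 10 cells a side were reached at 1.5 months only. There 12 of 15 were called higher and 0 lower (1.20), where 85 of 1779 genes were higher (4.78%) and 86 lower (4.83%). The sides of that class differ in their mix of libraries, so pooled values mix library with side. The Kcnj8 side held 237876 UMIs at 1.5 months and 75073 at 1 month, and the Myh11 side 69576 and 68592.

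Wall markers depended on the cells taken. Of the pericyte and vessel wall list 3 of 14 genes were called higher on the Myh11 side by the rule and 0 lower (median log2 ratio 0.81), whereas in the class with 4 or more markers 0 of 16 were higher there and 3 were higher on the Kcnj8 side (-0.16). Rgs5 was pooled at 9072 CPM on the Myh11 side and at 10483 CPM on the Kcnj8 side in that class, and Il6 at 773 and 1047 CPM. The 8 genes that led the Myh11 side by the rule were Filip1 (5.92-fold in the library with its smallest ratio), Acta2 (5.55), Tagln (5.48), Ppp1r14a (5.16), Sncg (4.77), Crispld2 (4.73), Rcan2 (4.62) and Nexn (4.60). Ppp1r14a encodes an inhibitor of myosin phosphatase, and Filip1 and Nexn bind filamin and actin. The 8 that led the Kcnj8 side were Spp1 (8.0), Cldn10 (4.23), Serpinf1 (3.72), Bglap (3.55), Slc29a1 (3.41), Mmp13 (3.39), Wif1 (3.08) and Car3 (2.97), of which Spp1, Bglap and Mmp13 are transcripts of bone-forming and stromal cells.

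That end also held the transcripts of other cells. Of the osteoblast list 3 of 9 genes were called higher on the Kcnj8 side by the rule, and the cells with exactly 3 markers and bone transcripts at 16 months with Rgs5, Abcc9 and Notch3 lay there by construction, since they had a UMI of Abcc9 and none of Myh11. In the class with 4 or more markers 2 osteoblast genes were higher on the Kcnj8 side and 1 on the Myh11 side. Bglap was at 253, 858, 262 and 12092 CPM on the Kcnj8 side of that class, and 2 cells of 16 months carried the last value, since it was 135 CPM without the cells with bone transcripts at 1% or more. Pooled over libraries without such cells Bglap was at 573 CPM on the Kcnj8 side and at 297 CPM on the Myh11 side. By the rule Mmp13 was on the Kcnj8 side in the 3 libraries used and on the Myh11 side at 1 month, at 2257 CPM against 750 CPM. In cells with 4 or more markers it led the Myh11 side by 6.50-fold with the libraries pooled, and was at 2712 CPM against 53.3 CPM at 1 month and at 273 against 139 CPM at 1.5 months. All 4 erythroid genes compared in that class were called higher on the Myh11 side with the libraries pooled. The erythroid sum of the class was 4429 CPM at 1 month and 266 to 498 CPM in the other libraries, so library and side cannot be told apart here. The genes that led the Kcnj8 side in that class were H2-M9 (16.3-fold), Ptgis (11.8), Bglap (10.8, with the 2 cells just named), Car3 (10.1) and Ccl7 (10.1), with levels under 3 UMIs again set at 3. Ptgis encodes prostacyclin synthase.

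**Figure D3:**
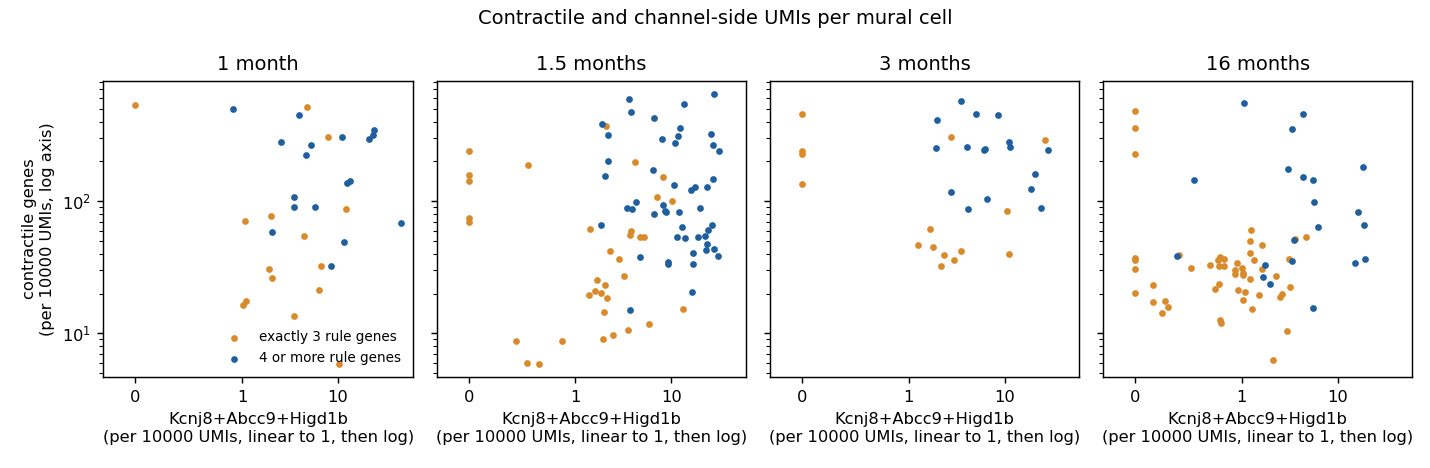
Contractile genes per 10000 UMIs (vertical, log axis) against Kcnj8, Abcc9 and Higd1b together per 10000 UMIs (horizontal, linear to 1 and then log), 1 point per mural cell. Among the 106 cells with 4 or more markers Pearson's r is -0.134 and Spearman's rho -0.116, a weak relation in sparse counts. The genes of the horizontal axis are rule genes that helped to choose the cells.

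Single cells spread widely. In the 106 cells with 4 or more markers Acta2 ran from 0 through a median of 25.4 to 217 per 10000 UMIs, and 17 of them had no UMI of it. Rgs5 ran from 0.391 through 114 to 318 per 10000. Contractile genes together (17 of the list, without Flna, Vcl and Myl6) ran from 15 through 122 to 640 per 10000, so that 57 of the 106 cells spent 1% or more of their UMIs on them. Of the 116 cells with exactly 3 markers 80 had no UMI of Acta2. Across the 106 cells the share of contractile UMIs and that of Kcnj8, Abcc9 and Higd1b gave a Pearson's r of -0.134 over the pooled libraries, and -0.106, -0.104, -0.357 and -0.209 within 1, 1.5, 3 and 16 months (18, 50, 17 and 21 cells). With Rgs5 the contractile share gave 0.251, -0.165, -0.717 and 0.012 within the libraries (rho 0.212, -0.108, -0.752 and 0.338). The sign of that relation thus differed between libraries, the strongest value came from 17 cells of the shallowest library, and the shares of a cell share its UMI total. Rgs5, Kcnj8, Abcc9 and Higd1b are also rule genes, so the choice of the cells bears on these values. Weak correlations in counts this sparse are no finding.

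The reporter used for the sort was read in the mural cells at the level of the stromal cells or above it. The reporter row of the tables, named tomato, was at 5459, 5496, 7855 and 6471 CPM in cells with 4 or more markers and at 4901, 4667, 5978 and 5054 CPM by the rule. Adipoq stromal cells held 4349, 4095, 3724 and 4594 CPM. Endothelial cells held 3925, 4726, 4052 and 1086 CPM and Ptprc cells 2750, 2434, 2398 and 642 CPM, so cells of lines that the Cre is not meant to mark carried reporter UMIs too. Col2a1, whose promoter drives the Cre, was at 177, 1782, 372 and 29.0 CPM in cells with 4 or more markers and at 162, 2429, 452 and 9.28 CPM in stromal cells. Ptprc cells, taken as the level of free RNA, held 466, 1897, 689 and 28.2 CPM. The wall cells lay below that level at 1, 1.5 and 3 months and near it at 16 months, so no Col2a1 beyond free RNA was seen in them.

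**Figure D4:**
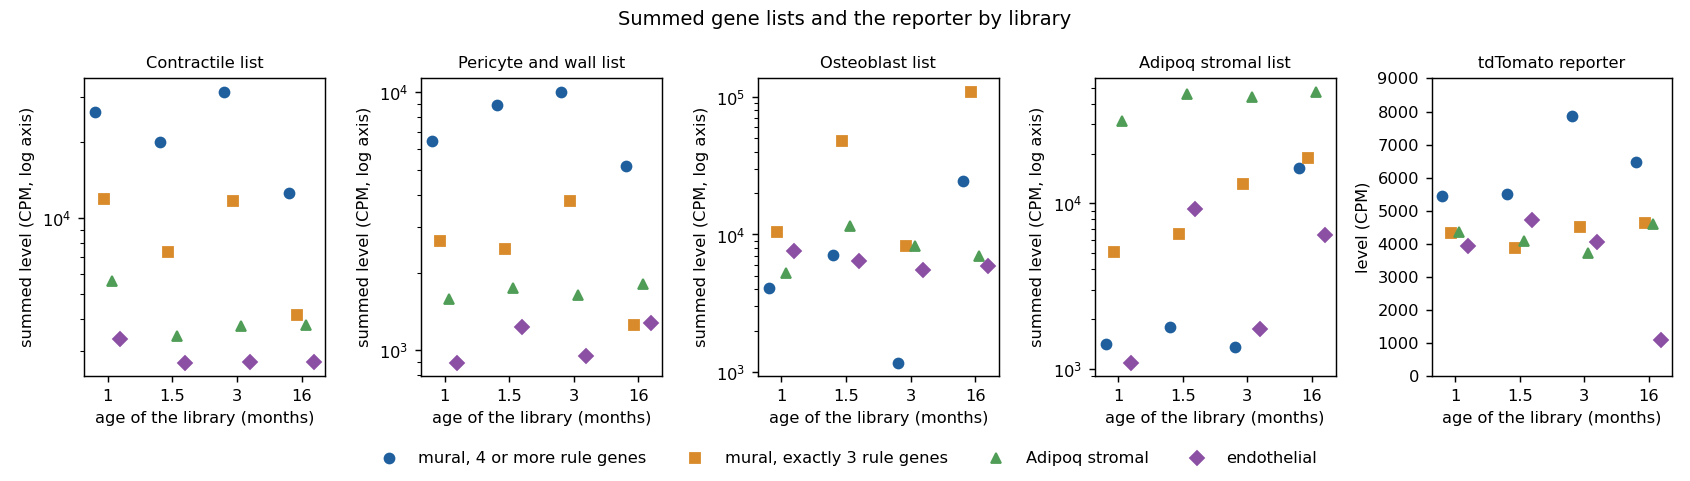
Summed CPM of the contractile, pericyte and vessel wall, osteoblast and Adipoq stromal lists (log axes) and CPM of the tdTomato reporter (linear axis from 0) by library, for cells with 4 or more markers, cells with exactly 3, Adipoq stromal and endothelial cells. The contractile sum is 12556 to 31364 CPM with 4 or more markers, 4149 to 11892 CPM with exactly 3 and 3428 to 5654 CPM in stromal cells.

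The 16 month library was compared with the 3 younger ones as a library. A gene was called when the 16 month level lay more than 2-fold beyond all 3 others with Poisson intervals apart, among genes at 100 CPM or more in 1 library. By the rule 138 of 2150 genes were called higher (6.42%) and 231 lower (10.7%). In cells with 4 or more markers 161 of 2388 were higher (6.74%) and 105 lower (4.4%). By the rule 9 of 15 contractile and 7 of 12 wall genes were lower at 16 months and 8 of 9 osteoblast genes higher. With 4 or more markers 3 of 16 contractile and 3 of 17 wall genes were lower and none higher, and 2 of 16 and 1 of 17 were lower without the cells with Cxcl12 at 1% or more. The contractile shift at 16 months therefore depended on which cells were taken.

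Acta2 showed this in numbers. By the rule it was at 588 CPM at 16 months, below the 2806 to 4448 CPM of the younger libraries, and 46 of the 51 cells with exactly 3 markers had no UMI of it. In the class with 4 or more markers it was at 1821 CPM, below 4450 to 7054 CPM, and 8 of 21 cells had none. Without the cells with Cxcl12 at 1% or more it was at 2788 CPM. Tagln was at 1908 CPM at 16 months in that class, under but close to the 2180 to 3248 CPM of the others. Actg2, the gamma actin of smooth muscle, was at 657, 163, 458 and 12.4 CPM, and Thy1, a surface antigen, at 588, 851, 630 and 33.2 CPM, with at most 4.12 CPM in stromal cells. Both were called lower, as was Tppp3, which binds tubulin, at 468, 451, 1002 and 20.7 CPM.

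Stromal transcripts were among the higher calls. In cells with 4 or more markers 9 of 10 Adipoq stromal genes, 7 of 14 niche genes (a list that shares members with the former), 7 of 16 immediate early and heat shock genes and 4 of 7 osteoblast genes were called higher at 16 months, and none of those lists had a lower call. Most of these counts rested on few cells. Without the cells with bone transcripts at 1% or more, 1 of 7 osteoblast genes was called higher, and the median cell of 16 months gave 11.4 per 10000 UMIs to Col1a1, Bglap, Bglap2 and Spp1. Without the 6 cells with Cxcl12 at 1% or more, 2 of 7 Adipoq stromal genes and 2 of 11 niche genes were called higher, 6 of 15 immediate early and heat shock genes still were, and the calls over all 2312 genes compared became 76 higher and 62 lower. The summed immediate early and heat shock list was highest at 16 months in the other classes too. It was at 31973 CPM in stromal cells (19593 to 25558 at younger ages) and 26941 CPM in endothelial cells (10279 to 18787). Ptprc cells held 8715 CPM (3807 to 6292), and cells with 4 or more markers 32511 CPM (11215 to 15915). Cxcl12 had a median of 9.41 per 10000 UMIs in the 21 cells, of which 6 gave it 1% or more of their UMIs, and without these 6 it was at 1490 CPM. In the younger libraries the highest of these cells held 8.53, 11.2 and 20.5 per 10000. Lepr, the leptin receptor gene, was at 0, 9.60, 0 and 373 CPM in the mural cells and at 162, 313, 238 and 932 CPM in stromal cells. Ptprc cells too held more Cxcl12 at 16 months, 2259 CPM against 94.0, 732 and 551 CPM.

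Several of the leading calls were shared by the library as a whole. Gm42418, a locus that overlaps ribosomal RNA sequence, was at 188, 127, 182 and 16721 CPM in mural cells by the rule, 215, 92.8, 143 and 16986 CPM in those with 4 or more markers and 272, 158, 230 and 19871 CPM in stromal cells. Lars2, a mitochondrial leucyl-tRNA synthetase gene, was at 6.47, 14, 6.26 and 733 CPM by the rule, 0, 22.4, 0 and 726 CPM with 4 or more markers and 6.59, 8.30, 7.06 and 1046 CPM in stromal cells. Rpl13a, a ribosomal protein gene, was at 3917, 2121, 2103 and 78.8 CPM in cells with 4 or more markers and called lower with it. Atp5o had no UMI in any of the 4 classes at 16 months. Of the 161 genes called higher in cells with 4 or more markers 37 were called in stromal, 33 in endothelial and 26 in Ptprc cells, and 98 in none of them. Of the 105 called lower, 32, 36 and 27 were called in those classes and 60 in none. By the rule 70 of the 138 higher and 143 of the 231 lower genes were called in none of the other classes. A gene below the level set for these calls in another class could not be called there. The counts in none therefore do not mark changes particular to mural cells. Without the cells with Cxcl12 at 1% or more, the 161 and 105 calls with 4 or more markers became 76 and 62. How many of the genes called in no other class were lost in this way was not tested.

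**Figure D5:**
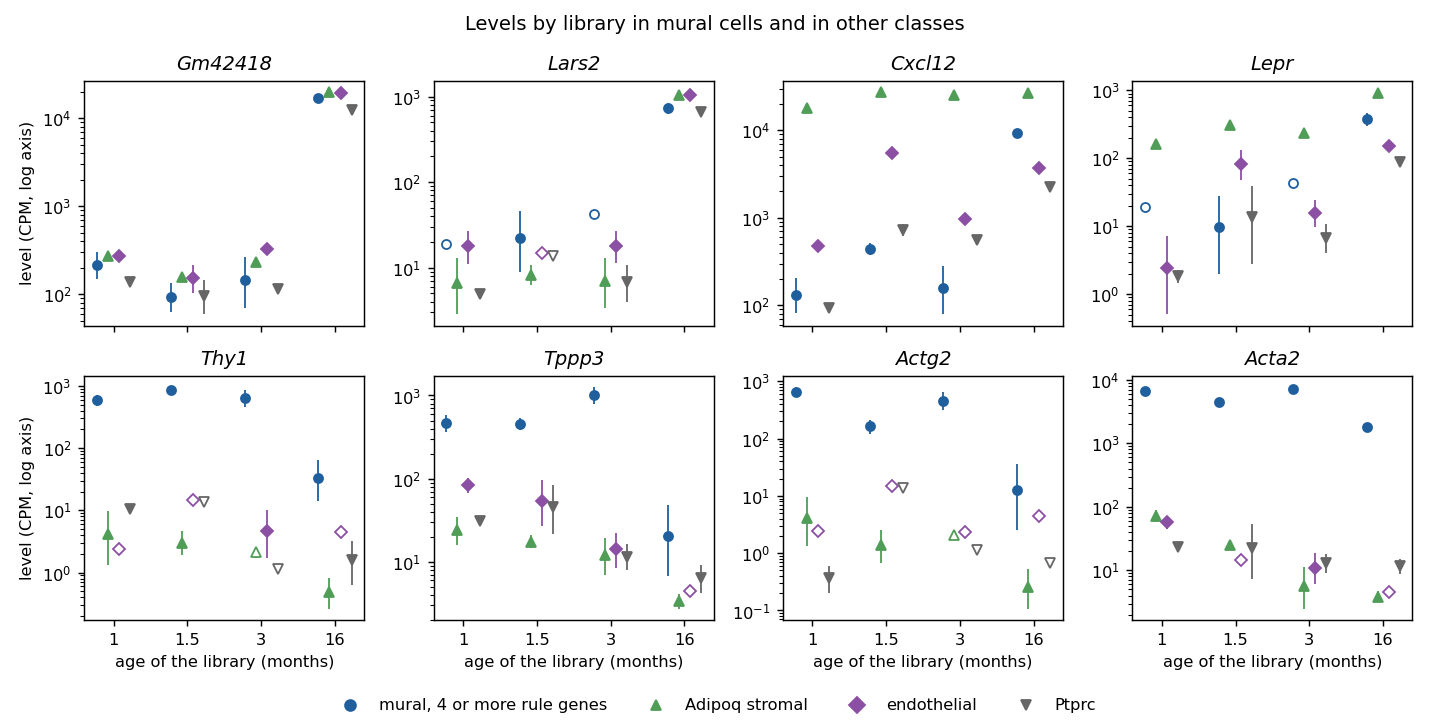
CPM (log axis) with exact Poisson intervals at each age for Gm42418, Lars2, Cxcl12, Lepr, Thy1, Tppp3, Actg2 and Acta2 in mural cells with 4 or more markers and in Adipoq stromal, endothelial and Ptprc cells. Open symbols are levels under 3 UMIs drawn at the level of 3 UMIs. Gm42418 and Lars2 are higher at 16 months in all classes, whereas Thy1 and Actg2 are lower in the mural cells.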

How the data were processed

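Each library was a droplet library of pooled, Td-sorted endosteal marrow cells. Per the labels and the study's methods, the authors counted UMIs with Cell Ranger 3.0.2 on an mm10 reference that included the reporter and used Seurat (version 2 in the labels, a later version as well in the study's methods) for their own clusters, which were not used here; the annotation release was not given in the sources used here. The deposited tables hold raw UMI counts per gene and barcode, with no filter on genes or mitochondrial share. All 4 libraries were used, each as 1 sample, and 0 sample columns were left unused. Library totals were 108227184, 63258961, 32672631 and 93269331 UMIs at 1, 1.5, 3 and 16 months.

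From these counts, barcodes outside 200 to 6000 genes or above 5% mitochondrial UMIs were dropped, the study's own limits, and classes were formed by the rules in the text. UMIs were summed per class and library over 26602 shared genes and given as CPM with exact Poisson 95% intervals; shares have exact Clopper-Pearson intervals. PCR and pooling are outside these intervals. With 1 library per age no test was run and no p-value is given. A call needed 20 cells of both classes in a library (15 with 4 or more markers, 10 for the sides). List medians are over genes of the median log2 ratio across libraries, without the rule genes. The genes that chose the endothelial cells stayed in the lists. Doublets were not removed in the values reported: a Scrublet score (scanpy 1.11.5) marked 8% of each library in an alternative. Thinned values used 3000 UMIs per cell, leaving out 312 shallower cells at 3 months and 518 at 16 months. Scripts (Python 3.11.15, numpy 2.4.6, scipy 1.17.1, pandas 2.3.3) were tested on simulated data. Gene coordinates are from GENCODE M21, and 4 list genes were matched by synonym.

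The members and the 24 gene lists (13 of pathways, 11 of other cell types) were chosen with earlier results of these data known, so counts over them are descriptions. Genes named are the rule genes, the leading and defining genes of each list, the 10 with the largest smallest-library fold over both classes, the 8 that led each side and the 6 with the largest 16 month ratio each way; Kcna5, Kcnmb1, Cacna1h and Prkg1 were named as defining genes of their lists. There were 25 alternatives fixed at the start and 8 chosen after seeing the data.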

Additional observations from a re-analysis of the deposited data

Results flagged for a closer look

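Among genes compared between mural and endothelial cells, 3 lay on opposite sides at 16 months and at the younger ages; the difference was not tested. Adamts4, a protease of the matrix, had a log2 ratio of mural over endothelial cells by the rule of 3.28, 1.46 and 1.58 at 1, 1.5 and 3 months and of -2.05 at 16 months. Procr, the receptor of protein C, had 1.16, 2.21 and 1.99 and then -2.77. Bcam, a laminin receptor, had 1.28, 1.62 and 1.07 and then -1.11. The endothelial class held 22 cells at 1.5 months and 55 at 16 months, and 51 of the 72 mural cells at 16 months carried exactly 3 markers. In cells with 4 or more markers the 16 month ratios were -0.29 for Adamts4, -0.91 for Procr and 0.63 for Bcam, after 3.98, 2.34 and 2.37, 1.90, 3.05 and 2.73, and 1.45, 2.41 and 1.99 at the younger ages, so that Bcam no longer lay on the other side and the other genes did by less than 2-fold.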

How the results depend on the processing

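No paired analysis was possible because each age had 1 library. Of 89 values recomputed under alternatives 41 stayed within their limit and 48 moved. These are shares, levels and counts, which have no sign, but the balance of higher and lower calls turned in some settings with 4 or more markers. Against endothelial cells it went from 167 and 302 to 227 and 191 in libraries of 15 cells. In the 2 libraries of 20 cells it was 302 and 453 and did not turn. At 16 months it went from 138 and 231 to 161 and 105. Between the sides it went from 53 and 19, which needed agreement in 3 libraries, to 226 and 254 in the 1 library with enough cells. Pooled it was 85 and 86. Neither of these needed agreement between libraries, so the change cannot be laid to the choice of cells. The mural share (0.922%) became 0.440% with 4 or more markers, 1.58% with up to 10% mitochondrial UMIs, 0.565% with no UMI of Adipoq and 0.568% after thinning, and at 16 months it ran from 0.342 to 2.86% over these alternatives. Genes higher than in stromal cells (100) became 65 at 3-fold, 238 with 4 or more markers in the 2 libraries of 20 cells, 190 in libraries of 15, 332 with no minimum level and 178 without the 16 month library. Genes lower (109) became 18 at 3-fold, 216 with 4 or more markers, 61 with cells weighted equally and 205 without the 16 month library. Over endothelial cells the higher genes (167) became 91 at 3-fold, 302 with 4 or more markers and 316 without the highest doublet scores, which took 31 of the 222 mural cells and left fewer libraries of 20 cells. The lower genes (302) became 172 at 3-fold and 191 with 4 or more markers in libraries of 15 cells. The Myh11 side (24.3% of cells) became 18.0% with an excess of 2 UMIs, 31.1% with 4 or more markers and 34.1% after thinning. With that excess its higher genes became 88 and those of the other side 56. Beyond 3-fold, 56 genes were higher and 93 lower at 16 months (138 and 231 at 2-fold), and with 4 or more markers 96 were lower without cells with bone transcripts at 1% or more, and 76 higher and 62 lower without cells with Cxcl12 at 1% or more. The reporter became 5459, 5496, 7855 and 6471 CPM with 4 or more markers. The cause of these moves was not tested. In the class with 4 or more markers, 3 UMIs stand for 9.60 to 42.9 CPM in a library, so absence below that level was not detectable.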
